A study of Mus musculus with 12 samples.

Results

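Splicing clusters in which 1 splice site was joined to 3 or more alternative partner sites were examined in mouse embryonic stem cells (mESCs), in RNA labelled as it was made. A splicing cluster is a set of introns linked by shared splice sites, as formed by LeafCutter from reads that span an intron (split reads). A cluster was taken when it held 3 or more introns and all of its introns shared 1 start, or all shared 1 end. The rule uses coordinates and no splicing level. It found 387 of 7263 clusters (5.33%), here called multi-partner clusters, with 1260 of 20437 introns. Of these, 318 had 3 partner sites, 47 had 4, 14 had 5 and 8 had 6. A further 3448 clusters joined 1 site to 2 partners and are given beside them. The table gave 1 gene name for 363 of the 387, several names for 16 and none for 8, and the 363 lay in 347 genes.

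The cells were a female mESC line of 129S x Cast background, kept on fibroblast feeders, in which METTL3 carries FKBP12(F36V) at its C terminus and Xist can be induced with doxycycline. The 6 dTAG samples had 3 h of dTAG-13, a small molecule that sends FKBP12(F36V)-tagged protein to degradation, before 30 min of 4-thiouridine (4sU) labelling. The 6 Ctrl samples had the tag and the labelling without dTAG-13. Both groups hold the clones C3 and H5, each a single edited line, with 3 replicates per clone. The share of an intron (its percent spliced in, PSI) is the part of a cluster's split reads assigned to it, from 0 to 1, and the shares of a cluster sum to 1. The table holds 1 fitted share per intron and condition over the 6 samples, so no value below carries a replicate error, no difference was tested, the 2 clones cannot be told apart and the depth behind a share is unknown. Of 6 stem cell marker genes, 4 had a cluster (*Esrrb*, *Klf4*, *Nanog* and *Zfp42*), against 1 of 6 fibroblast markers (*Fn1*) and 0 of 6 differentiation markers, and *Esrrb* alone of these 18 genes had a multi-partner cluster. Expression levels were not measured here.

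An intron runs from a 5′ splice site, which nearly always starts with GT, to a 3′ splice site, which ends with AG. One 3′ splice site meets several 5′ splice sites where a gene has alternative first exons that all join the same next exon, or where an exon can end at more than 1 place. One 5′ splice site meets several 3′ splice sites where an exon can begin at more than 1 place, often only a few bases apart, or where a gene has alternative last exons. METTL3 is the catalytic subunit of the complex that writes *N*6-methyladenosine (m6A) on RNA as it is made, most often within the sequence GGACU.

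Sites of 4 clusters are shown first because each stands for a kind of choice described below. Each is read from the GRCm38 genome in the sense of the transcript, with the first 2 or last 2 intron bases in capitals, and partners are ordered from the nearest to the furthest from the shared site. In *D11Wsu47e*, 3 annotated 5′ splice sites, 2 of them at the end of a first exon, join the 3′ splice site of 1 exon on the + strand of chromosome 11. In *Akap13*, a scaffold protein of protein kinase A, 3 AG ends follow each other every 3 nt on the + strand of chromosome 7. In *Hnrnpk*, which encodes an RNA-binding protein of poly(C) stretches, the last 2 of 6 partner 5′ splice sites lie 4 nt apart on the − strand of chromosome 13. In *Tpt1*, which encodes an abundant calcium-binding protein, 1 5′ splice site on the + strand of chromosome 14 meets an AG end that closes the annotated intron, another inside the annotated exon and 1 more at a last exon.
*D11Wsu47e* shared 3′ splice site, chr11:113687754-113687779: ctcccacctttaccttccAGgaagag
*D11Wsu47e* nearest 5′ splice site, chr11:113685264-113685283: gctaccagGTaagaccccat
*D11Wsu47e* middle 5′ splice site, chr11:113684803-113684822: accaggagGTcagaatcatc
*D11Wsu47e* furthest 5′ splice site, chr11:113684704-113684723: ctggcgagGTgagcttgatc
*Akap13* nearest 3′ splice site, chr7:75725948-75725973: ttgtttttttgtattttgAGgagtag
*Akap13* middle 3′ splice site, chr7:75725951-75725976: tttttttgtattttgaggAGtaggta
*Akap13* furthest 3′ splice site, chr7:75725954-75725979: ttttgtattttgaggagtAGgtacag
*Hnrnpk* site before the furthest, chr13:58402377-58402396: gcctgtagGTatctgggtgg
*Hnrnpk* furthest 5′ splice site, chr13:58402381-58402400: tgcggcctGTaggtatctgg
*Tpt1* nearest 3′ splice site, chr14:75847224-75847249: tttgttacgtgtttcttaAGtttttt
*Tpt1* middle 3′ splice site, chr14:75847252-75847277: tggtgaaaacatgaatccAGatggta
*Tpt1* furthest 3′ splice site, chr14:75848079-75848104: gccatctctttgttttgcAGtaacaa

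Most multi-partner clusters gathered 5′ splice sites onto 1 3′ splice site. The shared site was a 3′ splice site in 295 clusters (76.2%) and a 5′ splice site in 90 (23.3%), while in 2 clusters the intron ends gave no strand. Among the 2-partner clusters the 3′ splice site was shared in 1613 (46.8%) and the 5′ splice site in 1828 (53.0%). The partner sites of a shared 3′ splice site were spread over a median of 1020 nt between the nearest and the furthest, those of a shared 5′ splice site over 94 nt, and the range over all was 6 to 87649 nt. Of the partner 5′ splice sites, 53.0% (518 of 978) were annotated in GENCODE vM21 solely as the end of a first exon, against 29.9% in 2-partner clusters. Of the partner 3′ splice sites, 18.5% (51 of 276) were annotated solely as the start of a last exon, against 10.7%. These are counts of sites, with no test of the difference between kinds of cluster.

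The whole intron was annotated for 860 of 1260 partners (68.3%), and every intron of the cluster for 146 of 387 clusters. The partner with the largest share in dTAG, here called the leading partner, was an annotated intron in 361 clusters (93.3%), against 57.2% of the other partners. Of the 400 introns without annotation, 252 had the partner site outside annotated exons, 131 had it inside an exon and 17 had it at an annotated splice site. Their median shares were low. They were 0.0775 in dTAG and 0.0804 in Ctrl outside exons, and 0.0535 in dTAG and 0.0510 in Ctrl inside exons, against 0.306 in dTAG and 0.309 in Ctrl for annotated introns. In the 241 clusters with such an intron, unannotated introns together held a median of 0.108 in dTAG and 0.103 in Ctrl, and their sum was higher in dTAG in 118 and lower in 120. In 26 of them the unannotated introns held over 0.5 of the cluster in dTAG.

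The share was mostly held by 1 partner. The leading partner held a median of 0.718 in dTAG and 0.720 in Ctrl (quartiles 0.577 and 0.874 in dTAG, 0.565 and 0.873 in Ctrl), against 0.909 in dTAG and 0.909 in Ctrl in 2-partner clusters. The inverse Simpson number, which is the number of equally used partners that would give the same spread, had a median of 1.77 in dTAG and 1.78 in Ctrl. The leading share in dTAG was 0.746 with 3 partners, 0.635 with 4, 0.557 with 5 and 0.570 with 6.

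Which partner led differed with the site that was shared. Distance is the length of the intron, so that with a shared 3′ splice site the nearest partner is the most downstream 5′ splice site and the furthest is the most upstream. Among the 231 clusters with a shared 3′ splice site and 3 partners, the furthest partner led in 114 in dTAG and 115 in Ctrl, the middle in 69 and 69, and the nearest in 48 in dTAG and 47 in Ctrl. The median share of the furthest partner was 0.425 in dTAG and 0.433 in Ctrl, that of the middle 0.172 in dTAG and 0.165 in Ctrl, and that of the nearest 0.123 in dTAG and 0.137 in Ctrl. The order was the other way round for shared 5′ splice sites. Among 85 such clusters with 3 partners, the nearest 3′ splice site led in 43 in dTAG and 41 in Ctrl, the middle in 21 and 21, and the furthest in 21 in dTAG and 23 in Ctrl. Their median shares were 0.393 in dTAG and 0.389 in Ctrl for the nearest, 0.160 in dTAG and 0.162 in Ctrl for the middle, and 0.118 in dTAG and 0.122 in Ctrl for the furthest. Annotation ran the same way as the share. For a shared 3′ splice site 79.2% of the furthest and 60.2% of the nearest introns were annotated, and for a shared 5′ splice site 57.6% of the furthest and 76.5% of the nearest.

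**Figure D1:**
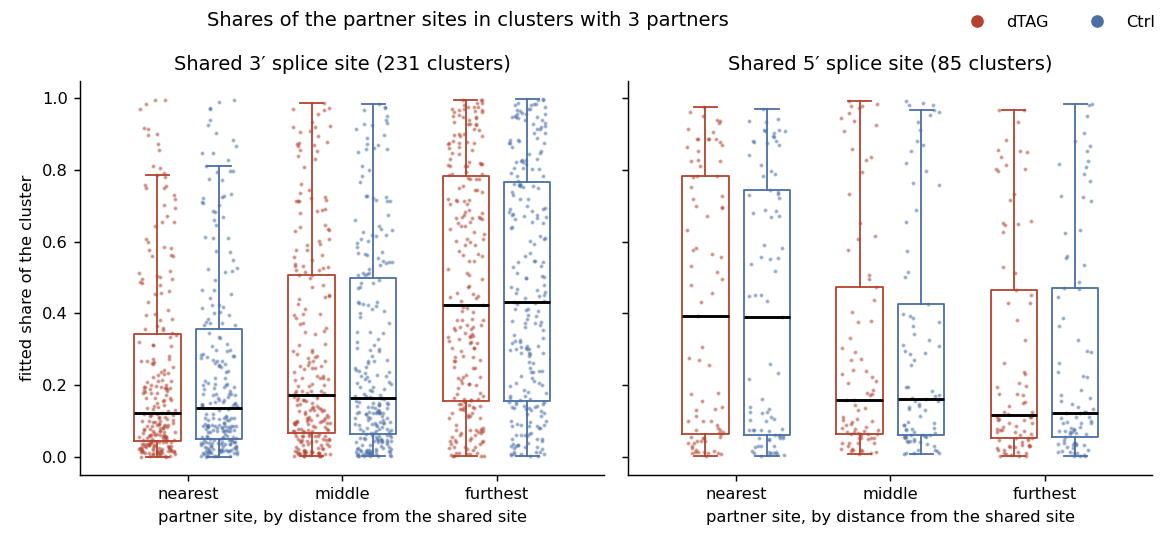
Fitted share (y axis, fraction of the cluster) of the nearest, middle and furthest partner site in clusters with 3 partners, for 231 clusters with a shared 3′ splice site (left) and 85 with a shared 5′ splice site (right). Points are clusters, boxes give quartiles and the median, whiskers reach the last point within 1.5 box lengths, and dTAG stands left of Ctrl. The median is highest for the furthest 5′ splice site (0.425 in dTAG, 0.433 in Ctrl) and for the nearest 3′ splice site (0.393 in dTAG, 0.389 in Ctrl).

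Absolute distance ordered the shares less than the place among competitors did. With a shared 3′ splice site, 20% of 90 partners under 300 nt away led their cluster, as did 25.5% of 247 at 300 to 1000 nt, 33.8% of 219 at 1000 to 3000 nt, 34.0% of 188 at 3000 to 10000 nt, 34.2% of 158 at 10000 to 30000 nt and 28.9% of 76 beyond. Their median shares in dTAG went from 0.126 in the shortest class to 0.248 at 1000 to 3000 nt and 0.157 in the longest, and in Ctrl from 0.108 to 0.228 and 0.179 in the same classes. With a shared 5′ splice site the leading percentage lay between 29.1% and 44.4% over the 6 distance classes, the longest of which held 6 partners. The mean difference between dTAG and Ctrl in any of these 12 classes lay between -0.0062 and 0.0083 in share.

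The clusters were also split by how many of their partner sites are annotated at first or last exons alone. With a shared 3′ splice site, 69 clusters had first-exon sites for every partner, 166 for some and 60 for none. Their leading partner held a median of 0.654 in dTAG and 0.637 in Ctrl, 0.701 in dTAG and 0.702 in Ctrl, and 0.720 in dTAG and 0.732 in Ctrl, in that order. In the 166 mixed clusters the first-exon sites together held a median of 0.826 in dTAG and 0.829 in Ctrl, and a first-exon site led in 133. Their sum was higher in dTAG by at least 0.1 in 5 clusters and lower by that much in 2. With a shared 5′ splice site, 6 of 90 clusters had last-exon sites for every partner, 22 for some and 62 for none. In the 22 mixed clusters the last-exon sites together held a median of 0.365 in dTAG and 0.272 in Ctrl, led in 9, and were higher in dTAG by at least 0.1 in 2 and lower by that much in 1. A difference of 0.1 at any partner was reached in 4 of these 22 (18.2%) and in 4 of the 62 without a last-exon site (6.45%), where 4.63% of all clusters reached it. The 62 had a median span of 69.5 nt, and the nearest partner led in 53.2%.

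The sequence of the partner sites was scored with a weight matrix (log2 odds against equal base frequencies, summed over 3 exon and 6 intron bases of a 5′ splice site, or 20 intron and 3 exon bases of a 3′ splice site) built from the splice sites of all deposited introns. Leading 5′ splice sites had a median score of 7.65 and the other partners 6.80, and leading 3′ splice sites had 8.73 against 6.59. The leading partner had the best score of its cluster in 62.2% of clusters with a shared 5′ splice site and in 41.4% with a shared 3′ splice site, against 66.1% and 61.9% in 2-partner clusters, where fewer partners compete. The letters GGACT, the DNA form of the m6A motif, searched in the sense of the transcript within 100 nt to either side, stood near 25.7% of partner 5′ splice sites and 18.5% of partner 3′ splice sites. The same windows of 2-partner clusters held it in 19.9% and 16.4%. A match is a sequence, and methylation was not measured in these tables.

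dTAG and Ctrl shares were close in most multi-partner clusters. The largest absolute difference between dTAG and Ctrl in a cluster had a median of 0.0310 (quartiles 0.0131 and 0.0575), against 0.0214 over all 7263 clusters and 0.0149 in 2-partner clusters. It reached 0.1 in 36 of 387 multi-partner clusters (9.30%), where the same mark was reached by 4.63% of all clusters, 3.77% of 2-partner clusters and 4.82% of the 3421 other clusters of 3 or more introns. The cluster just inside this mark differed by 0.1001 and the one just outside, in *Ncoa1*, by 0.0981. Of the 36, 33 had a leading share under 0.75 in dTAG. A difference of 0.1 was reached by 10 of 49 clusters with a leading share under 0.5 in dTAG (20.4%) and by 23 of 165 with 0.5 to 0.75 (13.9%), but by 2 of 97 with 0.75 to 0.9 (2.06%) and 1 of 76 above (1.32%). In the 2-partner clusters it was reached by 8.98%, 5.10% and 1.15% in the last 3 of these classes. The multi-partner percentage was thus higher at 0.5 to 0.75 and lower at 0.75 to 0.9. Above 0.9 it was close to that of the 2-partner clusters and rests on 1 cluster. The classes are cut on the dTAG share, which is also part of the difference that is counted.

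**Figure D2:**
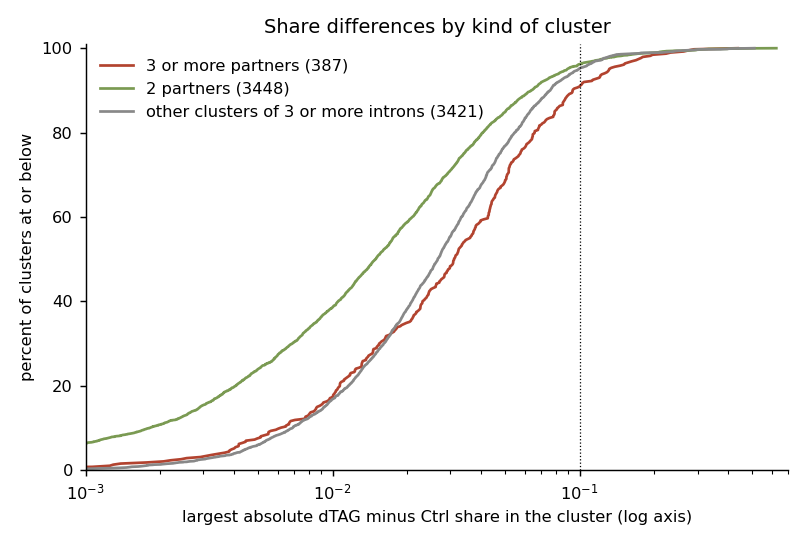
Cumulative percent of clusters (y axis) by their largest absolute dTAG minus Ctrl share (x axis, fraction, log scale), for 387 multi-partner clusters, 3448 clusters with 2 partners and 3421 other clusters of 3 or more introns. The dotted line marks 0.1, which 9.30%, 3.77% and 4.82% of them reached.

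The share moved to nearer partners in some clusters and to further ones in others. Distance ranks were scaled from 0 at the nearest to 1 at the furthest partner, and their mean weighted by share was 0.572 in dTAG and 0.571 in Ctrl. It was lower in dTAG by over 0.01, towards nearer partners, in 118 clusters, higher in 112, and within 0.01 in 157. Among the 146 clusters with every intron annotated it was lower in 58 and higher in 33, with no test of that balance. The inverse Simpson number was higher in dTAG by over 0.1 in 70 clusters and lower in 76. Among the 36 clusters past 0.1, the share lay further out in dTAG in 23 and nearer in 9. With a shared 3′ splice site this was 19 further and 6 nearer, which means more upstream 5′ splice sites in dTAG, and 2-partner clusters past 0.1 with a shared 3′ splice site divided into 37 further and 29 nearer. At a mark of 0.05 the multi-partner clusters divided evenly, with 55 further and 50 nearer in dTAG.

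The leading partner was not the same in dTAG and Ctrl in 24 of 387 clusters, 11 of them past 0.1, and in 2.32% of 2-partner clusters. Partners that were higher in dTAG by at least 0.1 numbered 31 and partners lower by that much 25. The furthest site was among the higher ones in 12 and among the lower ones in 3, and the nearest in 8 and 9. GGACT stood within 100 nt of 7 of the 31 higher partners (22.6%), 4 of the 25 lower ones (16.0%) and 24.2% of the rest.

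The 12 clusters with the largest differences lay in *D11Wsu47e*, *Tpt1*, *Rpl34*, *Nrf1*, *Kdm3a*, *Supt20*, *Gcnt2*, *Cpsf4l*, *Zfp978*, *Ubtf*, *Slc37a1* and *Tfpi*, and 9 of them shared a 3′ splice site. In *D11Wsu47e*, whose sites are shown above, the leading 5′ splice site was another one in dTAG than in Ctrl. The nearest site, which ends an internal exon and closes an intron of 2502 nt, held 0.0794 in dTAG and 0.516 in Ctrl, a difference of -0.436 and the largest of all 387 clusters. The first-exon site of the 3062 nt intron held 0.654 in dTAG and 0.376 in Ctrl, and the first-exon site between them, at 2963 nt, 0.267 in dTAG and 0.108 in Ctrl. The site that was lower in dTAG had the best sequence score of the cluster, 11.1 against 9.15 and 6.25.

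*Tpt1* and *Rpl34* were both less even in dTAG than in Ctrl. Both genes have processed copies elsewhere in the genome, and only uniquely mapped reads had been kept. In *Tpt1* the annotated intron of 444 nt held 0.974 in dTAG and 0.684 in Ctrl. The alternative AG inside the exon, 28 nt further, held 0.0155 in dTAG and 0.0795 in Ctrl, and the last-exon site at 1299 nt held 0.0104 in dTAG and 0.237 in Ctrl. *Rpl34* encodes a protein of the large ribosomal subunit, and its 3 partner 5′ splice sites all end first exons within 197 nt. The furthest held 0.750 in dTAG and 0.474 in Ctrl, the middle 0.0511 in dTAG and 0.1498 in Ctrl, and the nearest 0.199 in dTAG and 0.376 in Ctrl. The first exons in question end as follows, and the 3 sites score within a narrow range (8.31, 8.01 and 8.13 from the nearest to the furthest).
*Rpl34* nearest 5′ splice site, chr3:130730109-130730128, − strand: ccgaagcgGTgagtggccgg
*Rpl34* middle 5′ splice site, chr3:130730177-130730196, − strand: gaggagagGTgcgtaccggc
*Rpl34* furthest 5′ splice site, chr3:130730306-130730325, − strand: gctcagagGTatggtggcct

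*Nrf1*, a transcription factor of genes for mitochondrial respiration, was the cluster with the largest difference among those that join 1 5′ splice site to 3′ splice sites kilobases apart. Its 3′ splice site at 13856 nt, the one that is not a last exon alone, held 0.246 in dTAG and 0.509 in Ctrl. The site at 25154 nt led in dTAG, with 0.396 in dTAG and 0.282 in Ctrl, the site at 2821 nt held 0.226 in dTAG and 0.111 in Ctrl, and that at 18221 nt held 0.133 in dTAG and 0.0976 in Ctrl. All 3 sites that were higher in dTAG are annotated as the start of a last exon.

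The leading partner also differed in *Kdm3a*, *Supt20* and *Ubtf*. *Kdm3a* encodes a demethylase of histone H3 lysine 9, and its 5 partner 5′ splice sites spanned 3838 nt. The internal site at 3898 nt held 0.336 in dTAG and 0.569 in Ctrl, and the first-exon site at 1398 nt held 0.534 in dTAG and 0.392 in Ctrl. The remaining 3 sites held between 0.0239 and 0.0636 in dTAG and between 0.00256 and 0.0196 in Ctrl, each of them higher in dTAG. *Supt20* encodes a subunit of the SAGA histone acetyltransferase complex, and its choice lay between 2 first-exon sites only 35 nt apart. The site at 243 nt held 0.597 in dTAG and 0.408 in Ctrl, and the site at 208 nt held 0.288 in dTAG and 0.512 in Ctrl. *Ubtf*, which encodes a transcription factor of RNA polymerase I, was led in dTAG by the nearest of its 4 sites, at 1108 nt, with 0.354 in dTAG and 0.213 in Ctrl, while the site at 2374 nt held 0.332 in dTAG and 0.509 in Ctrl.

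*Gcnt2*, an enzyme that branches cell-surface glycans and is known for its alternative first exons, spread its partner sites over 58772 nt. The first-exon site at 34774 nt held 0.471 in dTAG and 0.409 in Ctrl, and that at 65290 nt held 0.301 in dTAG and 0.498 in Ctrl. An unannotated site inside an annotated exon, 236 nt upstream of the last one, held 0.174 in dTAG and 0.0296 in Ctrl, the largest relative difference of these 4 sites. *Tfpi*, an inhibitor of blood coagulation, was led in dTAG by the first-exon site at 2891 nt, with 0.398 in dTAG and 0.251 in Ctrl, while the internal site at 143 nt held 0.354 in dTAG and 0.523 in Ctrl.

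In the other 3 clusters of this group the same partner led in both conditions, with a lower share in dTAG. *Cpsf4l*, a relative of a cleavage and polyadenylation factor, was led by the first-exon site at 532 nt with 0.526 in dTAG and 0.719 in Ctrl. *Slc37a1*, a phosphate exchanger of the endoplasmic reticulum, was led by the first-exon site at 3374 nt with 0.596 in dTAG and 0.769 in Ctrl. *Zfp978*, a zinc finger gene, was led by the annotated 3′ splice site at 3020 nt with 0.577 in dTAG and 0.757 in Ctrl, and an unannotated AG 13 nt nearer held 0.271 in dTAG and 0.104 in Ctrl. That unannotated site scored -1.58, against 8.62 for the annotated one.

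**Figure D3:**
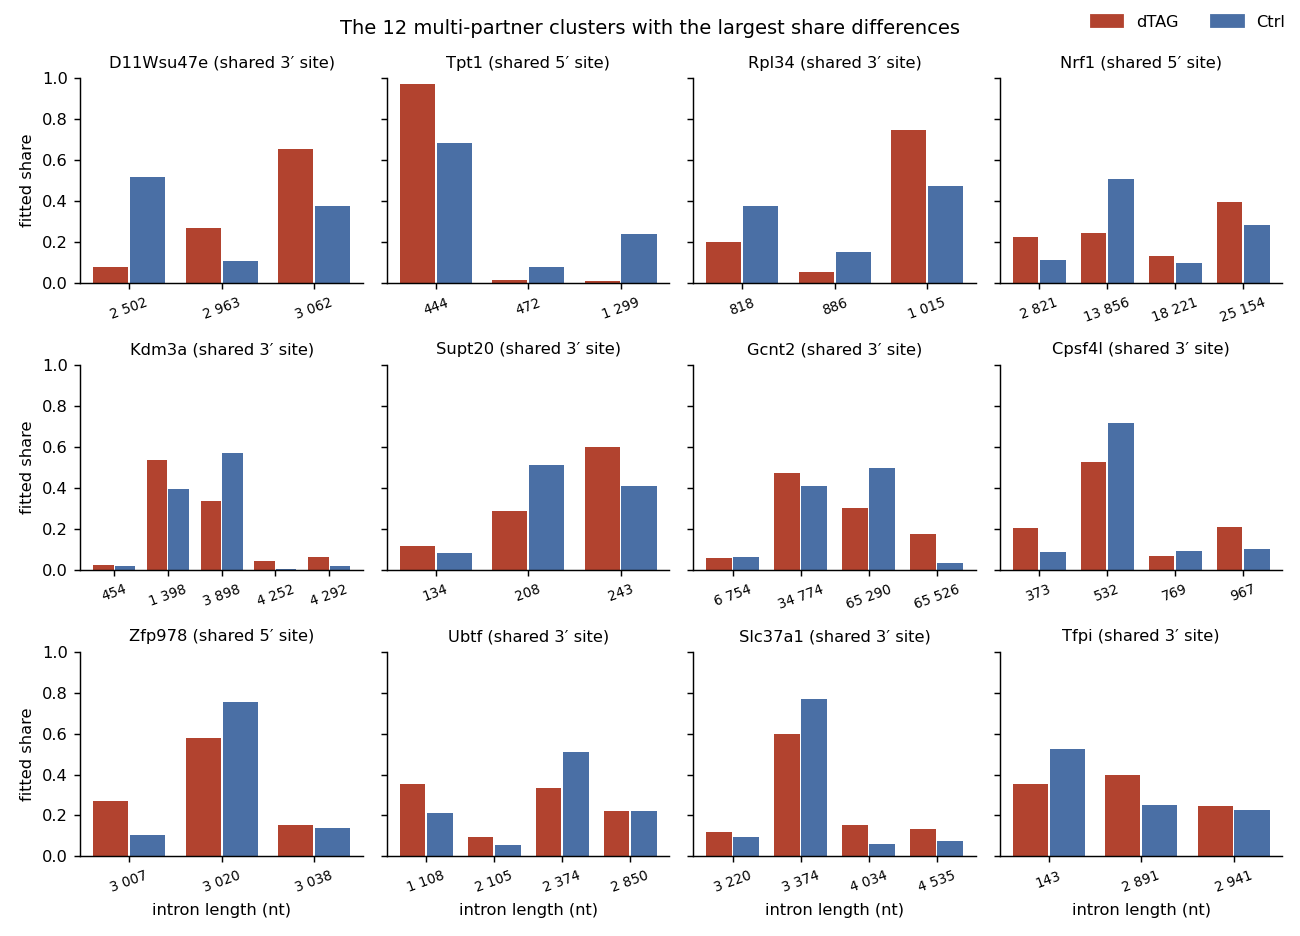
Fitted share (y axis, fraction) of each partner site in the 12 multi-partner clusters with the largest dTAG minus Ctrl difference, with the length of each partner's intron in nt on the x axis, from the nearest to the furthest. Bars start at 0, dTAG stands left of Ctrl, and each bar is 1 fitted value over 6 samples without an error. The tallest dTAG bar is the 444 nt intron of *Tpt1* at 0.974, and the widest gap is that of the 2502 nt intron of *D11Wsu47e*.

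Outside this group, the leading partner also differed, with a difference of at least 0.1, in *Otx2*, *Fiz1*, *Zscan22* and a cluster without a gene name on chromosome 8. *Otx2*, a homeobox gene of the early epiblast and the head, was led in dTAG by the 5′ splice site at 4540 nt, which held 0.448 in dTAG and 0.309 in Ctrl, and in Ctrl by the site at 2319 nt, which held 0.396 in dTAG and 0.523 in Ctrl. *Fiz1*, a zinc finger gene, was led in dTAG by the nearest first-exon site with 0.495 in dTAG and 0.373 in Ctrl, and the furthest held 0.407 in dTAG and 0.502 in Ctrl. *Zscan22*, another zinc finger gene, was led in dTAG by the first-exon site at 8253 nt with 0.427 in dTAG and 0.373 in Ctrl, against 0.408 in dTAG and 0.525 in Ctrl for the internal site at 2148 nt. Of the 18 clusters past 0.1 that the naming rule left out, *Brd2*, *Harbi1* and *Uspl1* are given here after their values were seen. *Brd2*, a bromodomain gene, had its nearest first-exon site at 0.586 in dTAG and 0.466 in Ctrl, and *Harbi1*, a gene derived from a transposase, had its furthest first-exon site at 0.342 in dTAG and 0.180 in Ctrl. *Uspl1*, a SUMO protease gene, had its nearest 3′ splice site at 0.868 in dTAG and 0.736 in Ctrl.

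The 8 clusters with 6 partners differed in how much their leading site held. At the X inactivation centre, a cluster named *Gm26992* and *Tsix* on the + strand joined 6 5′ splice sites to 1 3′ splice site at chrX:103481275, across introns of 31422 to 49573 nt. *Tsix* is the antisense RNA that opposes Xist, and the strand here comes from the intron ends. It had an inverse Simpson number of 3.09 in dTAG and 4.29 in Ctrl and was the only cluster of the 8 to pass 0.1. The site at 33303 nt held 0.518 in dTAG and 0.367 in Ctrl, and the furthest held 0.0979 in dTAG and 0.213 in Ctrl. The other 4 differed by less than 0.03, and 3 of the 6 sites fall within 21 nt of each other, as follows.
*Tsix* 33299 nt 5′ splice site, chrX:103447968-103447987: agcggtggGTgagatgcggg
*Tsix* 33303 nt 5′ splice site, chrX:103447964-103447983: gcggagcgGTgggtgagatg
*Tsix* 33320 nt 5′ splice site, chrX:103447947-103447966: ctagacagGTggccagagcg

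The other clusters with 6 partners had smaller differences. *Myo10*, a myosin of filopodia, was led by its nearest site in dTAG (0.332 in dTAG, 0.288 in Ctrl) and by the site at 22700 nt in Ctrl (0.311 in dTAG, 0.305 in Ctrl), with an inverse Simpson number of 3.99 in dTAG and 4.25 in Ctrl. *Nsd1*, a methyltransferase of histone H3 lysine 36, was led by the first-exon site at 3328 nt with 0.600 in dTAG and 0.597 in Ctrl. *Mga*, a partner of MAX in gene repression, was led by an unannotated site 29722 nt away with 0.431 in dTAG and 0.439 in Ctrl, ahead of the annotated first exon with 0.276 in dTAG and 0.251 in Ctrl. In *Hnrnpk* the furthest site held 0.908 in dTAG and 0.915 in Ctrl, although it scored 4.33 and the partner 4 nt nearer, with 0.0125 in dTAG and 0.0108 in Ctrl, scored 5.57. Across the 8 clusters the leading share ran between 0.332 and 0.958 in dTAG, and the 6-partner cluster of *Esrrb*, a nuclear receptor gene of naive stem cells, stood at the upper end.

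The highest inverse Simpson number of all 387 clusters in Ctrl, a measure that can be higher where there are more partners, was that of *Jarid2*, a cofactor of the Polycomb complex PRC2. Its 5 first-exon sites, at 778 to 1935 nt, held between 0.0574 and 0.291 in dTAG and between 0.116 and 0.333 in Ctrl, with an inverse Simpson number of 4.31 in Ctrl. The largest difference was at the site at 800 nt, with 0.0574 in dTAG and 0.116 in Ctrl. *D16Ertd472e*, which also chose between 5 first-exon sites, was led in dTAG by the nearest with 0.325 in dTAG and 0.267 in Ctrl, and in Ctrl by the middle site with 0.317 in dTAG and 0.342 in Ctrl. *Zfp985* had 4 partner 3′ splice sites with shares of 0.179 to 0.318 in dTAG and 0.156 to 0.318 in Ctrl.

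**Figure D4:**
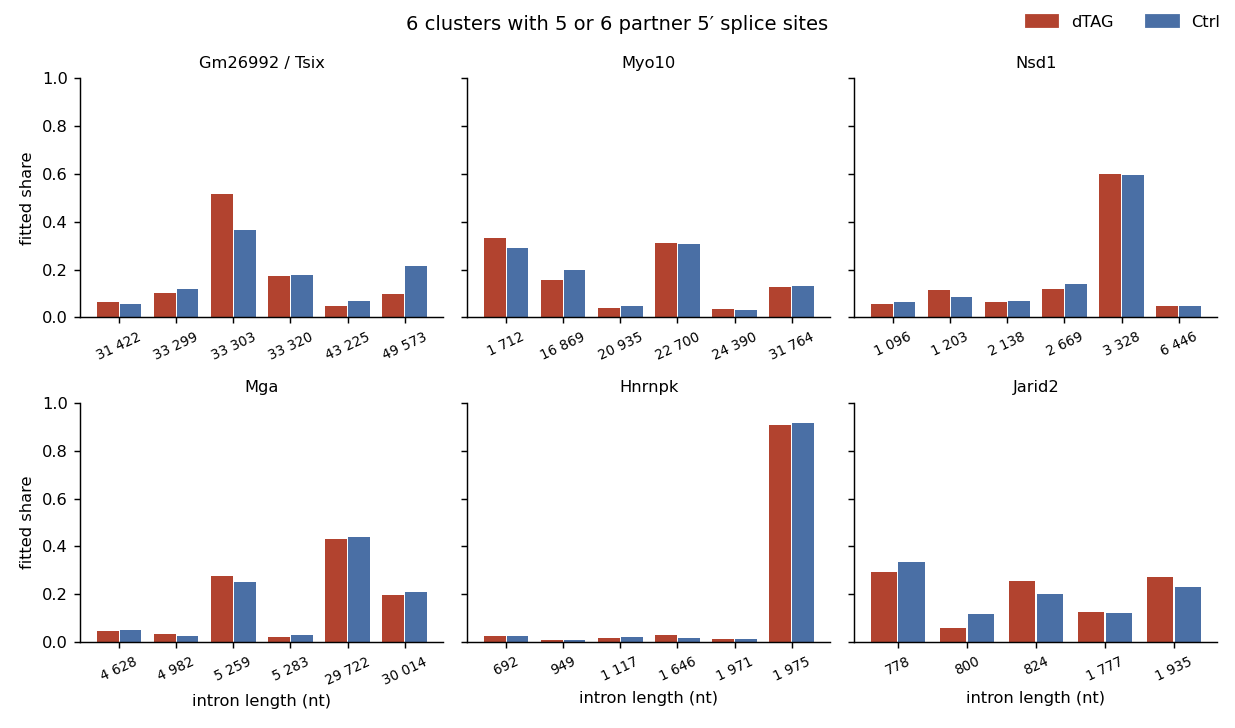
Fitted share (y axis, fraction) of each partner 5′ splice site in 6 clusters with 5 or 6 partners, with intron length in nt on the x axis, from the nearest to the furthest. Bars start at 0, dTAG stands left of Ctrl, and each bar is 1 fitted value over 6 samples. The 33303 nt site of *Gm26992* / *Tsix* holds 0.518 in dTAG and 0.367 in Ctrl, while the largest difference in *Hnrnpk* is 0.0116.

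Most multi-partner clusters stayed within 0.05 of Ctrl, in listed gene groups as in the whole set. Over all multi-partner clusters 31.3% reached 0.05, and over all clusters 19.8%. The listed chromatin and pluripotency genes (3 of 10) and noncoding host genes (2 of 6) were close to the 31.3%. The groups are small, and whether any of them differed from the whole set was not tested. Of 73 listed splicing regulators, 69 had a cluster and 10 multi-partner clusters lay in them. Of these 10, 0 reached 0.05, with a median largest difference of 0.0131. The highest, in *Rbm5*, was 0.0499 and lay just under the mark. *Pqbp1* and *Hnrnpul1*, which were not on that list, had largest differences of 0.0889 and 0.0682. Of the m6A machinery, 15 of 23 genes had a cluster and 1 had a multi-partner cluster, *Hnrnpc*, an RNA-binding protein of uridine tracts whose binding m6A can alter, with a largest difference of 0.0310. Of 40 genes of RNA decay and 3′ end processing, 34 had a cluster and 2 a multi-partner cluster, neither of which reached 0.05. That list was partial too. *Cpsf4*, *Gigyf2* and *Pum2*, which were not on it, had largest differences of 0.0658, 0.0809 and 0.0574. The list of chromatin and pluripotency genes was partial. *Kdm3a*, *Supt20*, *Otx2* and *Brd2*, each with a multi-partner cluster past 0.1, were not on it. Of its 54 genes, 47 had a cluster and 10 multi-partner clusters lay in them, of which 3 reached 0.05 and 0 reached 0.1. These were *Dnmt3a*, a de novo DNA methyltransferase, whose furthest site held 0.508 in dTAG and 0.429 in Ctrl, *Jarid2*, and *Prdm14*, a repressor of differentiation, whose nearest and unannotated site held 0.159 in dTAG and 0.0892 in Ctrl. Noncoding host genes had 6, of which 2 reached 0.1, *Tsix* and *Snhg6*, a host gene of small nucleolar RNA. In *Snhg6* the nearest site, which is unannotated, held 0.0258 in dTAG and 0.155 in Ctrl, and the first-exon site held 0.873 in dTAG and 0.804 in Ctrl.

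Partner sites only 3 or 4 nt apart offer the closest competition. Of 186 steps between neighbouring 3′ splice sites, 28 measured 3 nt (15.1%), the NAGNAG arrangement of tandem AG ends, against 26.3% of the 1828 in 2-partner clusters. Of 683 steps between neighbouring 5′ splice sites, 15 measured 4 nt (2.20%), against 4.46% of 1613. Of these 15 pairs, 12 had GT at both sites, the GTNNGT arrangement, and 3 had GC at 1 of them. A step of 3 nt keeps the reading frame and a step of 4 nt does not. Of the steps of at most 30 nt, 63.9% of 72 between 3′ splice sites and 36.2% of 94 between 5′ splice sites were multiples of 3.

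Within a NAGNAG pair the nearer AG held a median of 59.5% in dTAG and 62.6% in Ctrl of the pair's share, and it held more than the further AG in 18 of 28 pairs in dTAG and 19 in Ctrl. The quartiles in dTAG were 35.4% and 82.3%, so the preference varied widely between genes. It varied little between conditions, since the difference lay within 10 percentage points in 26 of 28 pairs and between -11.5 and 10.1 in all. *Tcf25* was close to balance, with 51.6% in dTAG and 51.6% in Ctrl, while *Nolc1*, a nucleolar protein gene, used the nearer AG for 18.9% in dTAG and 17.6% in Ctrl. The 2 pairs beyond 10 points were in *Trp53i11*, with 28.6% in dTAG and 40.1% in Ctrl, and *Gcfc2*, with 80.3% in dTAG and 70.2% in Ctrl. These 4, like *Akap13*, were chosen after their values were seen, and the nearer and further AG ends of the first 3 are shown because the sequences are alike where the usage is not.
*Tcf25* nearer AG, chr8:123403127-123403152, + strand: atcctgcctcttcctttcAGcagctg
*Tcf25* further AG, chr8:123403130-123403155, + strand: ctgcctcttcctttcagcAGctgtaa
*Nolc1* nearer AG, chr19:46078853-46078878, + strand: gtcagccttctctgcatcAGcaggtc
*Nolc1* further AG, chr19:46078856-46078881, + strand: agccttctctgcatcagcAGgtccac
*Trp53i11* nearer AG, chr2:93197589-93197614, + strand: tgtctccccatgtccctcAGcagaag
*Trp53i11* further AG, chr2:93197592-93197617, + strand: ctccccatgtccctcagcAGaagaaa

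All 3 pairs read AGCAG across the ends. In the triple arrangement of *Akap13*, shown above, the nearest AG held 0.811 in dTAG and 0.720 in Ctrl, the middle 0.0929 in dTAG and 0.132 in Ctrl, and the furthest 0.0962 in dTAG and 0.147 in Ctrl. *Hnrnpc* joined 1 5′ splice site to 3 annotated AG ends within 24 nt, with 0.583 in dTAG and 0.552 in Ctrl at the nearest, 0.305 in dTAG and 0.326 in Ctrl at the middle and 0.113 in dTAG and 0.122 in Ctrl at the furthest. Among the 4 nt pairs of 5′ splice sites the nearer one held a median of 26.2% in dTAG and 26.7% in Ctrl and led in 7 of 15 pairs in both conditions. It was under 10% or over 90% in 7 of 15 pairs in dTAG, such as *Mphosph6* (2.41% in dTAG, 1.97% in Ctrl) and *Emd* (98.0% in dTAG, 98.2% in Ctrl), both chosen after their values were seen.

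**Figure D5:**
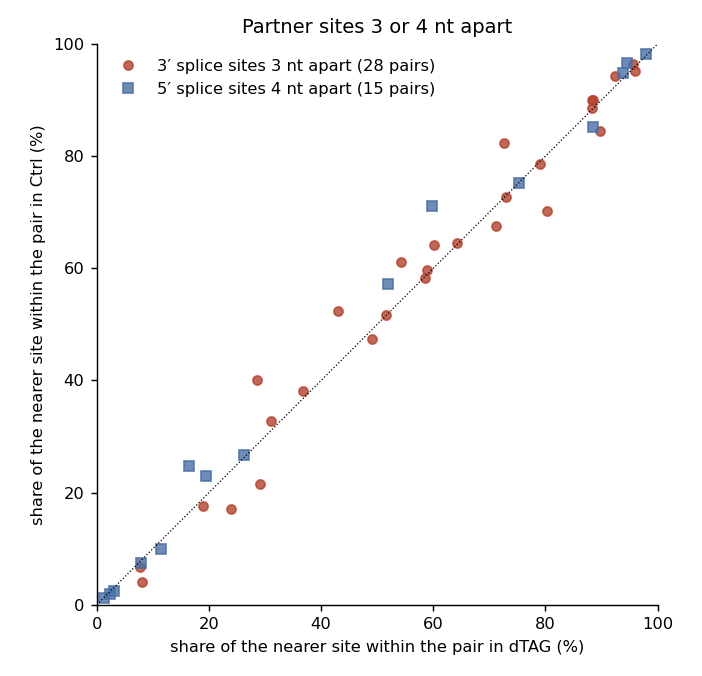
Share of the nearer site within pairs of partner sites 3 nt apart (28 pairs of 3′ splice sites, circles) or 4 nt apart (15 pairs of 5′ splice sites, squares), in percent, dTAG on the x axis and Ctrl on the y axis. The dotted line marks equal shares, and all but 3 of the 43 pairs lie within 10 percentage points of it.

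Several clusters lie in repeated or neighbouring sequence. The cluster without a gene name at chr8:129283092 joined 1 3′ splice site to 3 unannotated 5′ splice sites at 337, 422 and 674 nt, whose 20 bases are identical. It was the single case of such a repeat among the 66 clusters whose sites were read, which leave out the chromosome Y clusters described below. The site at 422 nt held 0.447 in dTAG and 0.347 in Ctrl, and the furthest 0.415 in dTAG and 0.449 in Ctrl. The repeated site is shown once.
chr8 cluster, middle 5′ splice site, chr8:129283503-129283522, − strand: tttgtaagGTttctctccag

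*D11Wsu47e* and *Cpsf4l*, both among the 12 largest differences, are neighbours on opposite strands of chromosome 11, with shared sites 21080 nt apart. A stretch of 320983 nt on chromosome 4 held 4 multi-partner clusters in *Gm13147*, *Zfp978*, *Zfp982* and *Zfp985*, of which 2 passed 0.1. Zinc finger genes there are a family of close copies, among which reads could be misplaced. Of the 387 clusters, 3 were placed on the Y chromosome of a line labelled female. All 3 shared sites lay within the bounds of the annotated gene *Gm47283*, but the cluster at chrY:90794800 was on the opposite strand to it. Of the 3 clusters, 2 passed 0.1, with shared sites 16115 nt apart. With shared sites at chrY:90794800 and chrY:90810915, their middle partners held 0.299 in dTAG and 0.165 in Ctrl, and 0.222 in dTAG and 0.109 in Ctrl. In each of these 2 clusters the 3 partner 5′ splice sites had the same sequence score, 1.79 at chrY:90794800 and 9.19 at chrY:90810915. Whether their sites are repeats, and where these reads came from, was not tested. Without the 24 clusters that have several gene names or none, which include these 2 and the chromosome 8 cluster, 32 of 363 clusters passed 0.1.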

How the data were processed

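4sU-seq libraries of 6 dTAG and 6 Ctrl samples (TruSeq Stranded Total RNA) had been mapped by the authors to mm10 with STAR 2.5.2b, with uniquely mapped reads kept, and split reads grouped by LeafCutter. The deposited table gives each intron a fitted share per condition as a fraction, pooled over both clones. Columns with the authors' own comparison (effect sizes, share differences, likelihood ratios, p-values) were not used. The number of per-sample columns was 0.

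Differences are dTAG minus Ctrl of the deposited fractions, and 0.1 was the mark for a difference. Deposited positions are the exon bases beside an intron, and intron length is end minus start minus 1. Strand came from the intron ends (99.0% GT-AG), checked on GRCm38.p6, the RefSeq sequence of mm10. Sites were compared with GENCODE vM21. Weight matrices used 13986 distinct 5′ and 13536 distinct 3′ splice sites. Genes named are the 12 largest differences, the 5 clusters with most partners, the 5 with the highest inverse Simpson number in Ctrl, listed genes from 0.05, and clusters past 0.1 whose leading partner differs. The clusters, lists and rules were chosen with earlier results of these data known. The steps were tested on 1000 simulated clusters, where all 521 multi-partner clusters and all 150 differences were found. The simulated shares were exact, without reads or noise, so this checks the arithmetic and not how well differences are detected. Alternatives were other marks, low partners left out, a single gene name, GT-AG or GC-AG ends alone, annotated introns alone, log10 distance, and log2 ratios with a pseudocount of 0.01. Python 3.11.15, numpy 2.4.6, pandas 2.3.3, pysam 0.24.0 and matplotlib 3.10.9 were used.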

Additional observations from a re-analysis of the deposited data

How the results depend on the processing

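Of 25 alternative values, 17 stayed within 1.5 times the reported count or percentage, or within the spread of leading shares (SD 0.175 over clusters), and 8 did not. That SD is a spread between clusters and not the error of a median, so the median leading share could hardly fall outside it. The count of 36 clusters past the share difference was 121 at a mark of 0.05 and 6 at 0.2. It was 22 when a log2 ratio of at least 1 was asked for, 13 of which were among the 36. Among the 146 clusters with every intron annotated, 13 passed 0.1, the leading partner differed in 14, against 24 of 387, and the share moved towards nearer partners in 58 and further in 33. The count of 118 clusters that moved towards nearer partners, with 112 further, was 64 with 52 further by mean log10 distance, and 206 with 181 further when moves of any size counted. The other marks and the moves of any size count other sizes of difference by construction. Counts over the 146 clusters were set against counts over 387, so passing 1.5 times does not by itself show another rate. Mean log10 distance is on another scale than distance ranks. The cause of the other balance between nearer and further in clusters with every intron annotated was not tested. Leaving out low partners, clusters without a single gene name, or introns without GT-AG or GC-AG ends moved no result by over 1.5 times. These settings kept 381, 363 and 385 of the 387 clusters, so they left little room for a change. No paired analysis was possible because the table has 1 fitted share per condition and no value per sample, and for the same reason no replicate could be left out. Depth behind a share is unknown, so a low share cannot be bounded.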
